A study of Homo sapiens with 8 samples.

Results

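The genes of sterol and fatty acid synthesis were examined by RNA-seq in LP-1 cells, a human multiple myeloma line, after bromodomain inhibition. A named list of 38 genes was taken, which covers the enzymes from acetyl-CoA to cholesterol, the SREBP transcription factors with their regulators, sterol transport proteins and the enzymes of fatty acid and lipid synthesis. All 38 were found by gene symbol in the deposited table, and 36 of them had a mean of at least 1 RPKM (read density along the gene, scaled to library size) over the 8 libraries and were tested among 14732 genes. The remaining members were the sterol exporters ABCA1, at 0.221 to 0.863 RPKM, and ABCG1, at 0 to 0.0377 RPKM. FADS2, with a mean of 3.23 RPKM, was the member nearest above the limit.

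LP-1 cells were exposed for 6 hr to 2.5 μM SGC-CBP30, an inhibitor of the CBP and EP300 bromodomains, to 250 nM CPI203, an inhibitor of the BET family bromodomains, or to DMSO, the solvent control. There were 8 libraries, 2 for each compound and 2 DMSO libraries for each compound, assigned to it by the naming series in the sample labels. The DMSO libraries of the SGC-CBP30 series and those of the CPI203 series are therefore kept apart. All groups share 1 cell line and 1 time point, and the doses of the compounds differ.

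Cells make cholesterol from acetyl-CoA through mevalonate, farnesyl diphosphate, squalene and a series of ring modifications, and they make fatty acids from the same precursor through malonyl-CoA. When membrane sterol is low, SCAP escorts the SREBP precursors out of the endoplasmic reticulum, they are cleaved, and the released fragments switch on the genes of both pathways together with NF-Y, a factor that binds the sequence CCAAT, and Sp1, which binds GC boxes. When sterol is plentiful, the INSIG proteins hold SCAP back. Plasma cells, the cells from which myeloma arises, secrete large amounts of antibody and carry an extended endoplasmic reticulum.

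Promoters were read to see which of these elements the members hold. RefSeq windows from 250 bases before to 50 bases after each start (GRCh38.p14) matched 33 of the 38 members, and there was no entry for ACAT2, FDFT1, SQLE, ABCG1 and FASN. The letters CCAAT were found on either strand in 23 of 33 members (69.7%), in 44.4% of 8419 tested genes with a window and in 34.6% of 35116 windows. GGGCGG, a GC box, was found in 32 of 33 members (97.0%), in 78.4% of tested genes and in 45.0% of windows. CACGTG, an E-box, was found in 5 of 33 members (15.2%), in 13.1% of tested genes and in 7.26% of windows. TCACNCCAC, a strict form of the sterol regulatory element, was found only in SREBF2 among the 33, in 1.6% of tested genes and in 1.13% of windows. The windows of 6 members are shown here without the bases after the start, 5′ to 3′ on the strand of the gene: the member that fell most with SGC-CBP30 relative to its own DMSO (INSIG1), the ring enzyme that fell most with it (MSMO1), a member that rose and a member that fell with CPI203 (TM7SF2, TMEM97), a ring enzyme that also rose with CPI203 (LSS) and the member with the sterol element (SREBF2). Capitals mark CCAAT or its reverse complement and, in SREBF2, also the sterol element.
INSIG1, chr7:155297628-155297877, plus strand: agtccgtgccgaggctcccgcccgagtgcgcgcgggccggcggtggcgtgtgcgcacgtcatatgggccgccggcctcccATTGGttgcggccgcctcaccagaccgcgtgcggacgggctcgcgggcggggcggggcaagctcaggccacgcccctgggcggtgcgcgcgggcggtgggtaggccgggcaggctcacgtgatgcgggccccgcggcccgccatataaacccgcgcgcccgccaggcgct
MSMO1, chr4:165327419-165327668, plus strand: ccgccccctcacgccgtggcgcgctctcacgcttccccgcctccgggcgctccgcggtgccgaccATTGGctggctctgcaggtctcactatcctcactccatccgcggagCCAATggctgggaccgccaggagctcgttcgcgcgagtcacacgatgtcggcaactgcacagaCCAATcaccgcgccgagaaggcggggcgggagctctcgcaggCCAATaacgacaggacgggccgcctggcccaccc
TM7SF2, chr11:65111622-65111871, plus strand: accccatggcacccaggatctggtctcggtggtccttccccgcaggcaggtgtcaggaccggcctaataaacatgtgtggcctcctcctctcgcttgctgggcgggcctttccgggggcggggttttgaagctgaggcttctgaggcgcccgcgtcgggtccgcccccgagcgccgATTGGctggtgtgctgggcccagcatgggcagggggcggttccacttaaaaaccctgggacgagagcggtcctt
TMEM97, chr17:28318950-28319199, plus strand: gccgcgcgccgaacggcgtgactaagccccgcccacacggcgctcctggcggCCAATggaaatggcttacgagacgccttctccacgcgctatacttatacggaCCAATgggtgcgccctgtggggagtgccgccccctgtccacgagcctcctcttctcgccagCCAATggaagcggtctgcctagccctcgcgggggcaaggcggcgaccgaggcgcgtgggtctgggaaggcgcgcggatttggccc
LSS, chr21:46228775-46229024, minus strand: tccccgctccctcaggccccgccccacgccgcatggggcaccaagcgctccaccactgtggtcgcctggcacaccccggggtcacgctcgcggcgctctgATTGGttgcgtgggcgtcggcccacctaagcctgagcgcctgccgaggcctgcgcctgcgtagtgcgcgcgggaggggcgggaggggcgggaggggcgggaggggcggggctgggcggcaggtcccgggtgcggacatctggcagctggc
SREBF2, chr22:41832855-41833104, plus strand: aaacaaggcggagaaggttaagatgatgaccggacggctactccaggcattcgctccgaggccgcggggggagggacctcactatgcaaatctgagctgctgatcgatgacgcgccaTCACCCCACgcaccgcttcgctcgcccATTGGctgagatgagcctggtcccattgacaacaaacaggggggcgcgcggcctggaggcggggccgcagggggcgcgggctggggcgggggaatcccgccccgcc
MSMO1 held 4 matches to CCAAT and TMEM97 held 3, whereas INSIG1, TM7SF2, LSS and SREBF2 held 1 each. Counted from the start, the sterol element of SREBF2 began at base -133 and its CCAAT at base -106. On hg19, the build of the deposited positions, these genes lie at chr7:155089485-155101945 (INSIG1), chr4:166248774-166264312 (MSMO1), chr11:64879316-64883856 (TM7SF2), chr17:26646120-26655707 (TMEM97), chr21:47608054-47648738 (LSS) and chr22:42229108-42303312 (SREBF2), and their levels are those of the whole gene. A match in these letters is a description of the window and does not show that a factor binds there. Among the members with a window, CCAAT was held by 3 of the 5 that were lower with SGC-CBP30 and by 5 of the 7 that were higher with CPI203.

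LP-1 cells expressed the marker genes of plasma cells. The 10 markers checked lay between 10.9 and 1920 RPKM in every library, whereas the 14 markers of T cells, monocytes, epithelium, fibroblasts and hepatocytes did not exceed 0.639 RPKM, with EPCAM and APOB at 0. Depth was estimated at 26000000 to 50100000 reads per library from the steps of values under 0.5 RPKM in genes with 1 exon, 58.7% to 71.4% of which came within 0.1 of a whole read, so it is an estimate. The SGC-CBP30 libraries, at 50100000 and 46800000 reads, were deeper than their DMSO libraries, at 34400000 and 34100000 reads. Values were analysed as log2(RPKM + 0.1) with limma over all 8 libraries, and calls required both a Benjamini-Hochberg adjusted p under 0.05 and a 1.5-fold difference. The pseudocount makes differences of weakly expressed members too small. An exact two-sided permutation test of 2 libraries against 2 could not go below p = 0.333, so each p rests on the spread that limma shares across genes.

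Among the members tested, FDPS, which makes farnesyl diphosphate, had the highest level, with a mean of 366 RPKM. It was followed by FDFT1, which commits farnesyl diphosphate to squalene, at 231 RPKM and by the desaturase SCD at 191 RPKM. The lowest levels after FADS2 were those of INSIG2, at 9.75 RPKM, and of ACSS2, the cytosolic enzyme that makes acetyl-CoA from acetate, at 10.5 RPKM. INSIG1 stood at 183 RPKM, so the INSIG family was represented mainly by INSIG1 in these cells. SREBF1, at 116 RPKM, and SREBF2, at 87.5 RPKM, were both well expressed.

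**Figure D1:**
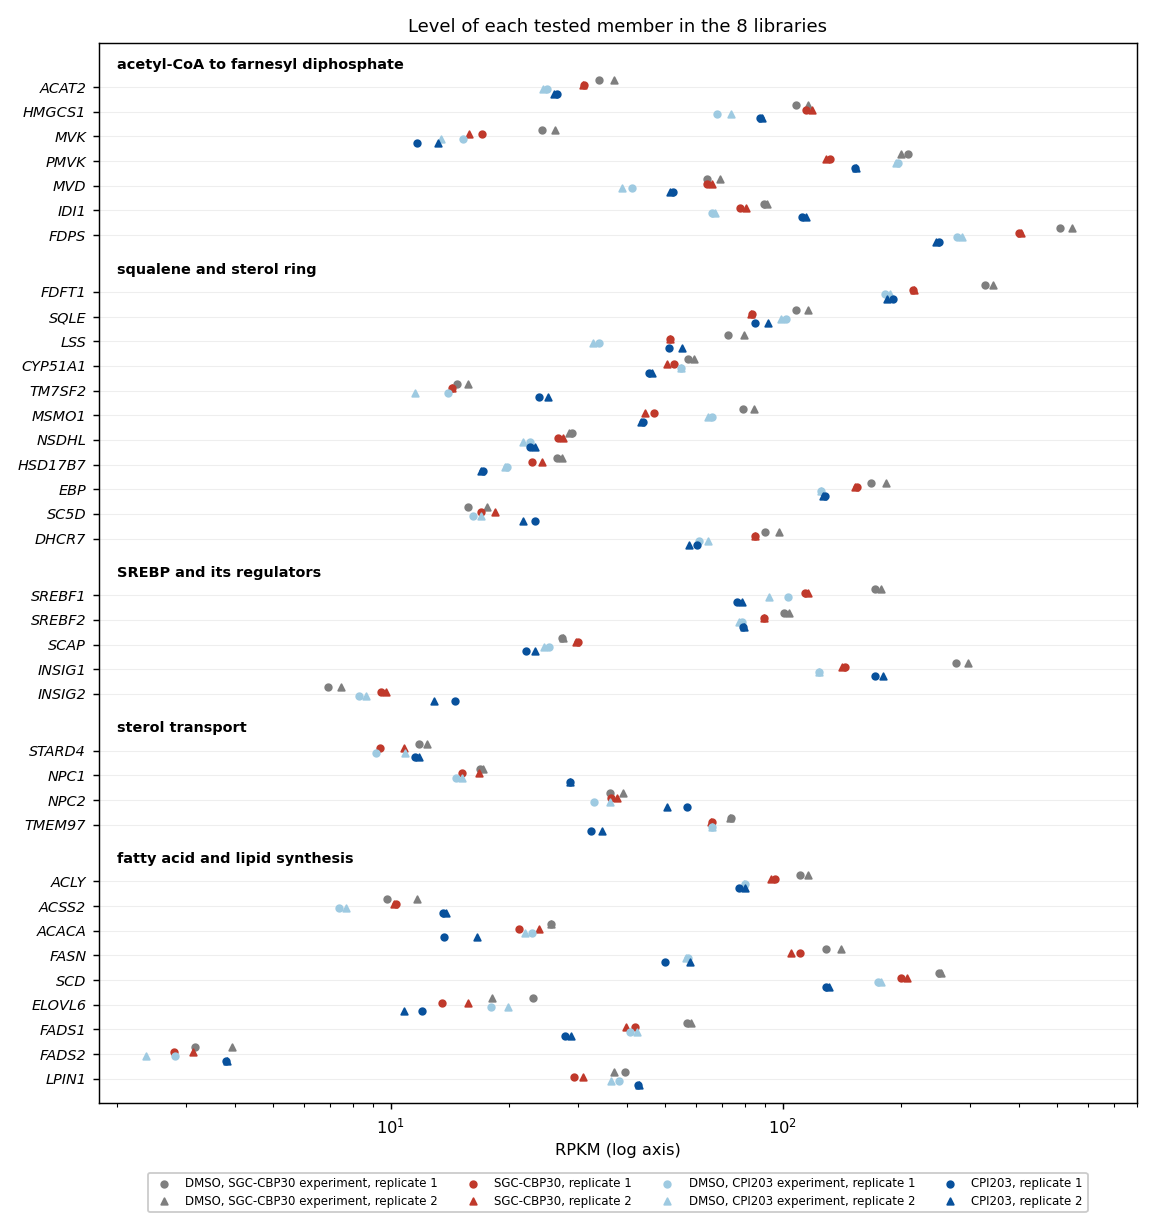
RPKM (log axis) of the 36 tested members in each of the 8 libraries, grouped by role; colours give the group and symbols the replicate. The DMSO libraries of the SGC-CBP30 series lie to the right of those of the CPI203 series for most members, as for INSIG1 (277 and 298 RPKM against 124 and 124 RPKM).

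SGC-CBP30 lowered a small number of members and raised none past the threshold. Of 36 members, 6 were called lower and 0 higher relative to DMSO, where 3.79% of all genes tested were called lower and 3.47% higher. The members called were INSIG1, MSMO1, PMVK, FDFT1, MVK and SREBF1, which lie in the mevalonate, sterol ring and SREBP groups. At an adjusted p under 0.05 with no minimum fold, 23 members were lower and 1, INSIG2, was higher, beside 14.8% and 25.6% of all genes. At an unadjusted p under 0.05, 24 were lower and 2 higher, a threshold at which the share of all genes was not counted. The median log2 difference was -0.19 over the members and 0.07 over all genes tested. Both SGC-CBP30 libraries lay below both DMSO libraries for 29 of 36 members, as they did for 27.2% of all genes, and above both for 2 members, as they did for 45.9% of all genes. Over all genes, 511 were called higher and 559 lower, a split that became 342 and 709 after scaling all libraries to 1 median, and with that scaling 7 members were lower and 0 higher.

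The SREBP regulators held the member that fell most relative to its own DMSO. INSIG1, a protein that retains SCAP in the endoplasmic reticulum, was at 277 and 298 RPKM in DMSO libraries and at 144 and 142 RPKM with SGC-CBP30. It fell by 1.00 ± 0.04 on the log2 scale (SE; adjusted p = 3.72e-07), and it ranked 195 of 14732 genes from the lowest difference up. SREBF1, which encodes SREBP-1, was at 172 and 178 RPKM in DMSO libraries and at 114 and 116 RPKM with SGC-CBP30. Its difference was -0.60 ± 0.05 (adjusted p = 2.62e-05). SREBF2, which encodes SREBP-2, went from 101 and 104 RPKM to 89.7 and 89.8 RPKM, a difference of -0.19 ± 0.03 that was under 1.5-fold. INSIG2, the second retention protein, was at 6.91 and 7.47 RPKM in DMSO libraries and at 9.47 and 9.73 RPKM with the compound, a difference of 0.41 ± 0.08 (adjusted p = 0.00345), also under 1.5-fold. The groups did not overlap for any of these genes. SCAP differed by 0.12, with a 95% interval from 0.01 to 0.23, and did not pass the adjusted threshold (adjusted p = 0.0722).

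In the mevalonate group, the kinases were the members called. MVK, mevalonate kinase, was at 24.3 and 26.3 RPKM in DMSO libraries and at 17.1 and 15.8 RPKM with SGC-CBP30, a difference of -0.62 ± 0.09 (adjusted p = 0.000536). PMVK, which adds the next phosphate, was at 209 and 201 RPKM in DMSO libraries and at 132 and 129 RPKM with the compound, a difference of -0.65 ± 0.03 (adjusted p = 1.39e-06). The synthase before them and the decarboxylase after them were not called. HMGCS1, which makes HMG-CoA, differed by 0.06 (95% interval -0.05 to 0.17), and MVD, which makes isopentenyl diphosphate, by -0.03 (95% interval -0.14 to 0.08). FDPS was lower by 0.39, under 1.5-fold, from 510 and 548 RPKM to 401 and 406 RPKM.

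In the group of squalene and sterol ring enzymes, MSMO1 and FDFT1 were called. MSMO1, the C4 methyl oxidase of the sterol ring, was at 79.3 and 84.7 RPKM in DMSO libraries and at 47.1 and 44.5 RPKM with SGC-CBP30. It fell by 0.84 ± 0.05 on the log2 scale (adjusted p = 2.14e-06). FDFT1, squalene synthase, was at 328 and 344 RPKM in DMSO libraries and at 215 and 216 RPKM with the compound, a difference of -0.64 ± 0.03 (adjusted p = 1.74e-06). LSS, which closes the sterol rings, was just under the fold limit, at -0.56 ± 0.05, from 72.5 and 79.6 RPKM to 51.6 and 51.5 RPKM. The other enzymes of the group ranged from -0.42 for SQLE, squalene epoxidase, to 0.09 for SC5D, the desaturase near the end of the pathway. In all, 8 of the 11 members of this group were lower at an adjusted p under 0.05 and none was higher.

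Sterol transport and fatty acid genes gave no calls. None of the 4 tested transport genes was called, and their differences ranged from -0.25 to -0.02. None of the 9 fatty acid and lipid genes was called, 6 were lower at an adjusted p under 0.05, and all 9 had a negative difference, from -0.49 to -0.06. Their median was -0.30, beside -0.19 in each of the mevalonate, ring and SREBP groups, a gap that was not tested. The fatty acid members with the lowest values were ELOVL6, an elongase of saturated chains, at -0.49 ± 0.12, and FADS1, the delta-5 desaturase, at -0.49 ± 0.05. FASN, fatty acid synthase, went from 129 and 141 RPKM to 111 and 105 RPKM, a difference of -0.32 ± 0.07, and SCD went from 250 and 253 RPKM to 201 and 208 RPKM. These 4 genes passed the adjusted threshold but not the fold limit.

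Most of the calls with SGC-CBP30 depended on which DMSO libraries served as controls. With all 4 DMSO libraries as controls, 2 members stayed called, MSMO1 at -0.68 and PMVK at -0.62. Of 14732 genes tested, 212 were then called higher and 304 lower. The median was 0.002 over the members and 0.07 over all genes. In that fit INSIG1 had a difference of -0.40 (adjusted p = 0.492) and SREBF1 a difference of -0.18 (adjusted p = 0.668).

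CPI203 changed the members in both directions, as it did the genes tested as a whole. Of 36 members, 7 (19.4%) were called higher and 2 (5.56%) lower relative to DMSO. Of all genes tested, 13.4% were called higher and 14.4% lower. TM7SF2, NPC1, ACSS2, IDI1, INSIG2, LSS and NPC2 were higher, whereas TMEM97 and ELOVL6 were lower. With no minimum fold, 13 members were higher and 13 lower at an adjusted p under 0.05, beside 31.1% and 33.1% of all genes. The median log2 difference was 0.02 over the members and -0.01 over all genes. Both CPI203 libraries lay above both DMSO libraries for 17 members and below both for 15, as they did for 39.2% and 41.7% of all genes. With all 4 DMSO libraries as controls, 4 members were called higher and 7 lower, where 2033 and 2233 of 14732 genes tested were. In that fit LSS no longer differed past the threshold, at 0.08 (adjusted p = 0.86), and IDI1, at 0.55, and NPC2, at 0.57, were under 1.5-fold.

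Transport genes were among the members that changed most. NPC1, the membrane protein that exports cholesterol from lysosomes, was at 14.7 and 15.2 RPKM in DMSO libraries and at 28.7 and 28.6 RPKM with CPI203, a difference of 0.94 ± 0.06 (adjusted p = 7.75e-07). NPC2, the soluble protein that hands cholesterol to NPC1, was at 33.0 and 36.2 RPKM in DMSO libraries and at 56.9 and 50.8 RPKM with the compound, a difference of 0.64 ± 0.07 (adjusted p = 2.08e-05). TMEM97, the sigma-2 receptor, which binds NPC1, went the other way. It was at 65.9 and 66.1 RPKM in DMSO libraries and at 32.5 and 34.5 RPKM with CPI203, and fell by 0.98 ± 0.04 on the log2 scale (adjusted p = 5.35e-08). STARD4, a carrier of cholesterol between membranes, differed by 0.22 (95% interval 0.01 to 0.43) and was not called.

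Squalene and sterol ring enzymes did not move together with CPI203. TM7SF2, a C14 sterol reductase, was at 14.0 and 11.5 RPKM in DMSO libraries and at 23.9 and 25.2 RPKM with CPI203, a difference of 0.95 ± 0.09 (adjusted p = 6.89e-06) close to that of NPC1. LSS was at 34.0 and 32.9 RPKM in DMSO libraries and at 51.4 and 55.5 RPKM with the compound, a difference of 0.67 ± 0.05 (adjusted p = 3.36e-06). MSMO1 went down, from 66.1 and 64.6 RPKM to 44.1 and 43.6 RPKM, a difference of -0.58 ± 0.05 that was just under 1.5-fold. FDFT1, which read 183 and 188 RPKM in DMSO, read 191 and 185 RPKM with CPI203, so the groups overlapped. Of the 11 members in this group, 3 were higher and 4 lower at an adjusted p under 0.05.

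In the mevalonate group only IDI1, the isomerase that makes dimethylallyl diphosphate, was called. It was at 65.9 and 67.2 RPKM in DMSO libraries and at 112 and 115 RPKM with CPI203, a difference of 0.77 ± 0.04 (adjusted p = 1.23e-07). HMGCS1 and MVD were higher by 0.31 and 0.38 and PMVK was lower by 0.36, all under 1.5-fold. Of the SREBP group, INSIG2 was at 8.31 and 8.64 RPKM in DMSO libraries and at 14.6 and 12.9 RPKM with CPI203, a difference of 0.69 ± 0.08 (adjusted p = 4.47e-05). INSIG1 was at 124 RPKM in both DMSO libraries and at 172 and 180 RPKM with the compound, a difference of 0.50 ± 0.04 that was under 1.5-fold. SREBF1 went from 103 and 92.2 RPKM to 76.7 and 78.6 RPKM, a difference of -0.33 ± 0.05, and SREBF2 differed by 0.02 (95% interval -0.05 to 0.10).

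Fatty acid genes changed in both directions. ACSS2 was at 7.37 and 7.67 RPKM in DMSO libraries and at 13.6 and 13.8 RPKM with CPI203, a difference of 0.86 ± 0.09 (adjusted p = 1.40e-05). ELOVL6 was at 18.0 and 19.9 RPKM in DMSO libraries and at 12.0 and 10.8 RPKM with the compound, a difference of -0.73 ± 0.12 (adjusted p = 0.000353). ACACA, the carboxylase that makes malonyl-CoA, at -0.57, FADS1, at -0.56, and SCD, at -0.44, were lower at an adjusted p under 0.05 but under 1.5-fold. FASN went from 57.5 and 56.8 RPKM to 50.1 and 58.1 RPKM, and ACLY, which makes acetyl-CoA from citrate, from 80.1 and 79.8 RPKM to 77.6 and 80.3 RPKM, so both overlapped between the groups. LPIN1, a phosphatidate phosphatase, differed by 0.19 ± 0.05.

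**Figure D2:**
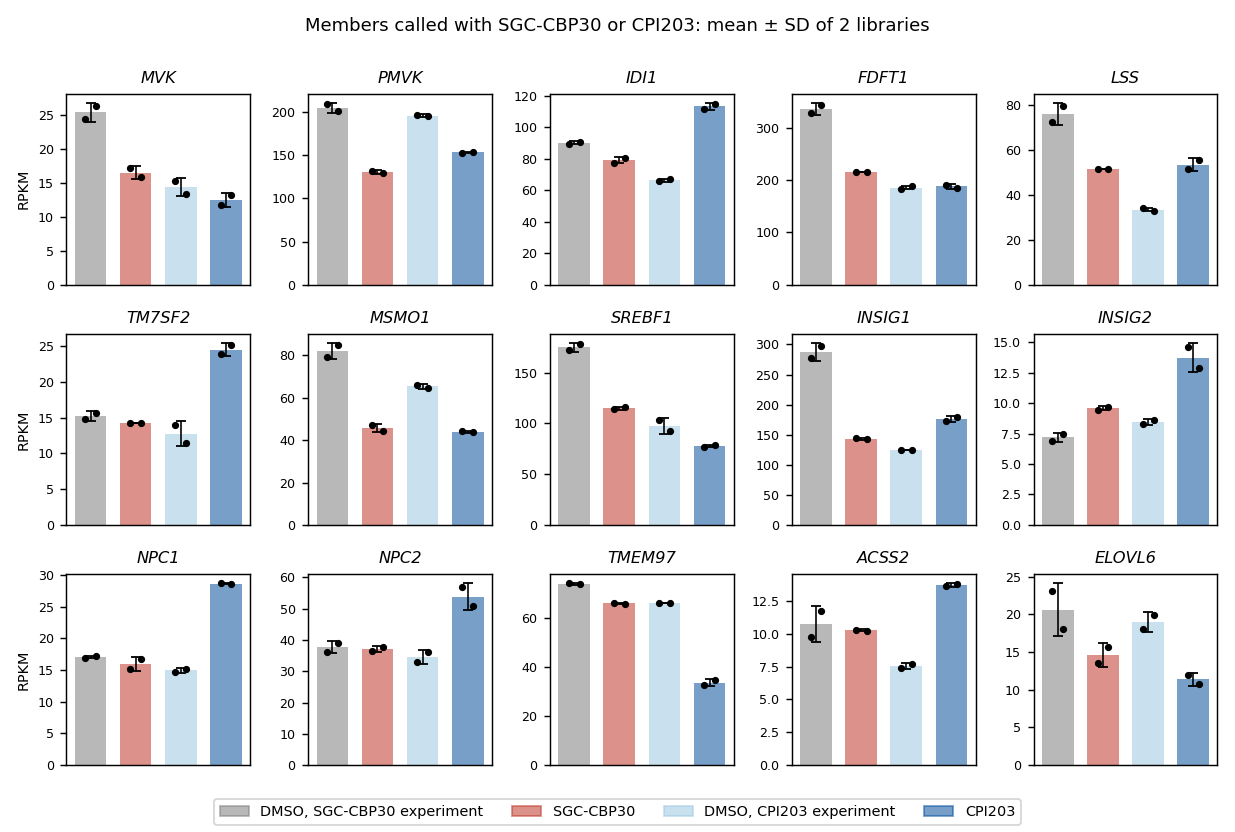
Mean RPKM ± SD of 2 libraries (bars, from 0) with each library as a point, for the 15 members called with SGC-CBP30 or CPI203; each panel has its own axis. INSIG1 is highest in the DMSO libraries of the SGC-CBP30 series (277 and 298 RPKM), and TMEM97 is lowest with CPI203 (32.5 and 34.5 RPKM).

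Several of the called genes share sequence positions with a neighbour, and whether the counting used strand is not given in the sources used here. With CPI203, the neighbours had differences of -0.34 for VPS51 beside TM7SF2, 0.56 for C18orf8 beside NPC1 and 0.10 for ISCA2 beside NPC2. Those of IFT20 beside TMEM97 and of GGT7 beside ACSS2 were 0.06 and -0.11. With SGC-CBP30, MMAB beside MVK had a difference of -0.31 and RAI1 beside SREBF1 a difference of -0.35. In mean level, VPS51 (80.3 RPKM), C18orf8 (23.4 RPKM) and MMAB (49.7 RPKM) stood above their members, at 16.7, 19.2 and 17.1 RPKM. The other neighbours named stood below theirs. The part of these neighbours in the members' values was not tested. FADS1 and FADS2 overlap each other, so the values of FADS2, which was much lower, are uncertain. In bulk libraries such as these, fewer cells that express a gene and less RNA per cell cannot be told apart.

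The responses to the compounds were compared as the SGC-CBP30 difference minus the CPI203 difference, each within its own series. Of 36 members, 9 had a lower and 1 a higher response to SGC-CBP30, where 9.68% and 14.8% of all genes tested were called lower and higher. With no minimum fold, adjusted p under 0.05 held for 24 lower and 4 higher members, beside 21.0% and 29.3% of all genes. INSIG1 had the largest gap, -1.51 ± 0.06 (adjusted p = 1.79e-07), having fallen by 1.00 with SGC-CBP30 and differed by 0.50 with CPI203. LSS followed at -1.23 ± 0.08 (adjusted p = 2.24e-06), with differences of -0.56 and 0.67. Its levels with the compounds were close, at 51.6 and 51.5 RPKM (SGC-CBP30) and 51.4 and 55.5 RPKM (CPI203). TM7SF2 at -1.04, NPC1 at -1.03, IDI1 at -0.96, ACSS2 at -0.91 and NPC2 at -0.66 were members that rose with CPI203 and differed by -0.19 to -0.02 with SGC-CBP30. FDFT1, at -0.65 ± 0.05, fell with SGC-CBP30 and differed by 0.01 with CPI203. Its level was 215 and 216 RPKM with SGC-CBP30 and 191 and 185 RPKM with CPI203. Each gap also takes in the difference between the DMSO libraries of the series. That difference, SGC-CBP30 series minus CPI203 series, was 1.21 for INSIG1, 1.18 for LSS and 0.85 for FDFT1. For the other members named here it was 0.12 to 0.50.

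FADS2, the delta-6 desaturase, was called in this comparison alone among those of the compounds. It was at 3.17 and 3.93 RPKM in DMSO and 2.80 and 3.12 RPKM with SGC-CBP30, and at 2.82 and 2.37 RPKM in DMSO and 3.80 and 3.83 RPKM with CPI203, a gap of -0.79 ± 0.20 (adjusted p = 0.00805). TMEM97 was the member with the higher response to SGC-CBP30, at 0.82 ± 0.06 (adjusted p = 3.72e-06). It was at 74.0 and 73.6 RPKM in DMSO and 66.1 and 65.8 RPKM with SGC-CBP30, a difference of -0.16. MSMO1, whose level was lower with either compound than in its DMSO, had a gap of -0.26, with a 95% interval from -0.41 to -0.12. ELOVL6 had a gap of 0.25, with a 95% interval from -0.12 to 0.62, and FADS1 a gap of 0.07, with a 95% interval from -0.08 to 0.21. The median gap was -0.27 over the members and 0.06 over all genes. Over all genes, 2183 gaps were called higher and 1426 lower, a split that became 1805 and 1790 with quantile normalization, where 1 member was higher and 10 were lower. Since the doses and the experiments differ with the compounds, the compound, its dose and its series cannot be told apart here.

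**Figure D3:**
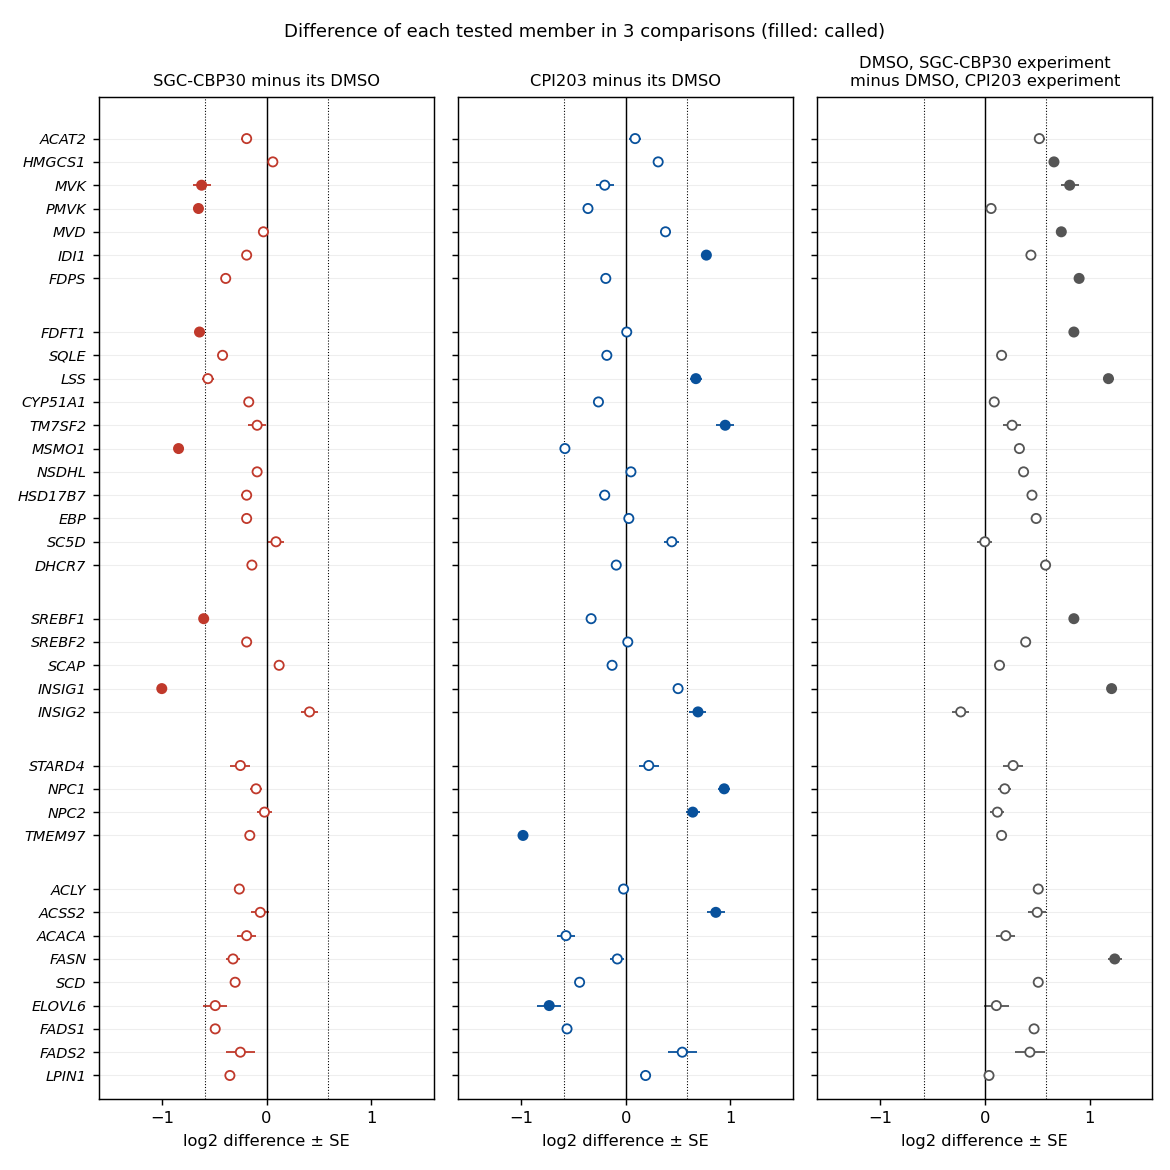
Log2 difference ± SE of each tested member with SGC-CBP30, with CPI203, and between the DMSO pairs; filled points were called and dotted lines mark 1.5-fold. With SGC-CBP30, 6 filled points lie to the left of 0, with CPI203 7 lie to the right and 2 to the left, and between the DMSO pairs 9 lie to the right.

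The DMSO libraries of the series also differed in these genes. Relative to the DMSO libraries of the CPI203 series, those of the SGC-CBP30 series had 9 members called higher and 0 lower, where 3.91% and 3.93% of all genes tested were called higher and lower. With no minimum fold, 28 members were higher and 1, INSIG2, was lower at an adjusted p under 0.05, and the same counts were found at an unadjusted p under 0.05, beside 21.5% and 20.3% of all genes at the adjusted threshold. The median log2 difference was 0.44 over the members and -0.01 over all genes. Both libraries of the SGC-CBP30 series lay above both of the CPI203 series for 32 of 36 members, as they did for 35.1% of all genes, and below both for 1 member, as they did for 36.2%. This comparison shares its DMSO libraries with the comparisons of both compounds, so its values are set beside theirs and not used to test them.

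The members called covered every group except transport. FASN was at 129 and 141 RPKM in the SGC-CBP30 series and at 57.5 and 56.8 RPKM in the CPI203 series, a difference of 1.24 ± 0.07 (adjusted p = 1.40e-06). INSIG1 was at 277 and 298 RPKM against 124 RPKM in both libraries, a difference of 1.21 ± 0.04 (adjusted p = 4.91e-08). LSS was at 72.5 and 79.6 RPKM against 34.0 and 32.9 RPKM, a difference of 1.18 ± 0.05 (adjusted p = 3.94e-07). FDPS at 0.90, FDFT1 and SREBF1 at 0.85, MVK at 0.81, MVD at 0.73 and HMGCS1 at 0.66 were also called, and these are enzymes of the mevalonate and squalene steps apart from SREBF1. The 7 members that did not pass the adjusted threshold were PMVK (0.06 ± 0.03), CYP51A1 (0.09 ± 0.04), SC5D (0.00 ± 0.07), NPC2 (0.12 ± 0.07), ACACA (0.20 ± 0.09), ELOVL6 (0.11 ± 0.12) and LPIN1 (0.04 ± 0.05).

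Set side by side, the level with SGC-CBP30 lay between the DMSO levels of the 2 series for INSIG1, FDFT1, MVK and SREBF1. INSIG1 with SGC-CBP30, at 144 and 142 RPKM, lay above its level in DMSO of the CPI203 series, at 124 RPKM, and below its level with CPI203, at 172 and 180 RPKM. FDFT1 with SGC-CBP30, at 215 and 216 RPKM, lay above the 183 and 188 RPKM of the other DMSO pair. MVK with SGC-CBP30, at 17.1 and 15.8 RPKM, lay above the other DMSO pair, at 15.3 and 13.4 RPKM. Its own DMSO pair was at 24.3 and 26.3 RPKM. SREBF1 with SGC-CBP30, at 114 and 116 RPKM, lay above the other DMSO pair, at 103 and 92.2 RPKM. Its own DMSO pair was at 172 and 178 RPKM. MSMO1 and PMVK, the remaining members called with SGC-CBP30, did not follow this order. MSMO1 with SGC-CBP30, at 47.1 and 44.5 RPKM, lay below both DMSO pairs, at 79.3 and 84.7 RPKM and at 66.1 and 64.6 RPKM. PMVK with SGC-CBP30, at 132 and 129 RPKM, also lay below both, at 209 and 201 RPKM and at 197 and 195 RPKM. What set the DMSO pairs apart was not tested, and the labels give the same cell line, time and solvent for both.

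**Figure D4:**
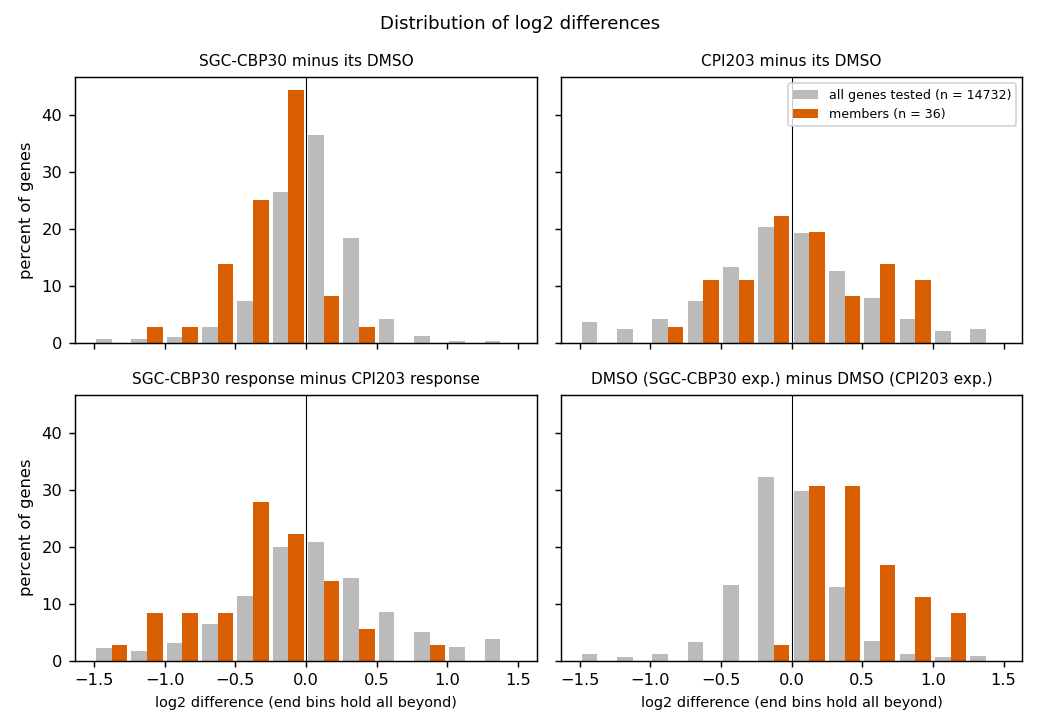
Percent of genes in bins of log2 difference, for the 36 tested members (orange) and all 14732 genes tested (grey), in 4 comparisons. Between the DMSO pairs, 24 of 36 members lie at or above 0.25 and 0 at or below -0.25, whereas 18.8% and 19.2% of all genes do; with SGC-CBP30, 16 members lie at or below -0.25, as do 12.7% of all genes.

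Other genes of these pathways were counted in 5 further lists. Over all genes tested, 3.47% were called higher and 3.79% lower with SGC-CBP30, and 13.4% and 14.4% with CPI203. Of 8 genes for SREBP processing and turnover, 1 was higher with SGC-CBP30, PAQR3, a Golgi anchor of SCAP, at 0.82 ± 0.08, and 0 were lower. With CPI203, RNF145, an ubiquitin ligase of the endoplasmic reticulum, and MBTPS2, the site-2 protease that releases SREBP, were lower, at -0.82 ± 0.08 and -0.77 ± 0.07. Of 11 genes of the isoprenoid branch, 0 were called with SGC-CBP30, though 7 were higher and 1 lower at an adjusted p under 0.05 with no minimum fold, beside 25.6% and 14.8% of all genes, and with CPI203 only PDSS1, which builds the tail of coenzyme Q, was called, at -0.69 ± 0.07. Of 10 tested genes of oxysterol and LXR function, 0 were called with SGC-CBP30. With CPI203, SOAT1, which esterifies cholesterol for storage, was higher by 1.03 ± 0.05 and NCEH1, a cholesteryl ester hydrolase, by 0.71 ± 0.09.

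Fatty acid genes outside the list were called in both directions. Of 20 tested genes of fatty acid activation, elongation and glycerolipid synthesis, 6 were higher and 5 lower with CPI203, and 1 was higher and 1 lower with SGC-CBP30. ACSL1, which activates long-chain fatty acids, rose from a mean of 3.03 RPKM to 12.5 RPKM with CPI203, a difference of 2.01 ± 0.09 (adjusted p = 1.07e-07). ELOVL7, an elongase, was higher by 1.43 ± 0.14 with CPI203 and by 0.94 ± 0.14 with SGC-CBP30. DGAT2, the last enzyme of triglyceride synthesis, and LPIN3 were lower with CPI203, at -0.93 ± 0.06 and -0.88 ± 0.13. ACSL5 was lower with SGC-CBP30, at -0.79 ± 0.06, and also with CPI203, at -0.84 ± 0.06. Of 14 tested genes of fatty acid oxidation, 0 were called with CPI203, where 7 were higher and 1 lower at an adjusted p under 0.05 (31.1% and 33.1% of all genes), and 1 was called with SGC-CBP30, CPT1A, the gate of mitochondrial import, at -0.64 ± 0.06. Between the DMSO pairs, SLC25A1, which exports citrate for fatty acid synthesis, was higher in the SGC-CBP30 series by 0.60 ± 0.07, and it was the only gene called among these 5 lists.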

How the data were processed

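RNA-seq of 8 LP-1 libraries was used, in 4 groups of 2 taken from the sample labels. A figure legend of the study speaks of biological replicates and paired DMSO controls. How the replicates were cultured or paired is not stated, so p-values measure the spread between these samples. The main fit used no pairing. The values deposited by the authors are gene-level RPKM from a sequencing provider, 1 column for each library. The submitters' processing notes name TopHat 1.4.1, Cufflinks and hg19, while the annotation release is not given in the sources used here. Of the deposited table of 63129 genes, 27 genes with a missing value and 24 columns of other samples were left out, as were the deposited gene rows of 4 member symbols on patch sequences, at 0. From log2(RPKM + 0.1), genes averaging 1 RPKM or more were fitted with limma 3.58.1 (R 4.3.3, eBayes with trend; 4 residual and 5.5 prior degrees of freedom), with Benjamini-Hochberg adjustment over 14732 genes; tables and figures used Python 3.11.15, pandas 2.3.3, numpy 2.4.6, scipy 1.17.1 and matplotlib 3.10.9. The fit was tested on simulated data. Depth was read from steps of low values, and counting error near 1 RPKM limits precision.

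The members, the lists of other pathway genes and the markers were chosen with earlier results of these data known. Values in every library were given for members called with a compound or in the difference between responses, other members by range and count, and up to 2 genes per other list and comparison with the largest called change. 1 gene of these lists is not reported here. The other settings tried were a larger pseudocount (1), a higher limit on low values (5 RPKM) or none, scaling to a common median, quantile normalization, a fit without trend, separate fits, pooled DMSO controls, a replicate block, fold limits of 2 or none, and leaving out each library.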

Additional observations from a re-analysis of the deposited data

How the results depend on the processing

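The replicate block, the fit without trend, separate fits and limits on low values left each log2 difference unchanged. They could move only its p, as could leaving out a library that a comparison does not use. Fold limits aside, 26 of 34 single-member results kept their call in each alternative fitted for them, and 15 of 548 refits lost it with the same direction. The controls of all 4 DMSO libraries, fitted only for the 15 results of single compounds, took 7 of these, and 33 results could be refitted at 5 RPKM (not FADS2). With those controls, 2 members were called with SGC-CBP30 (MSMO1 and PMVK), and the members' median was 0.002 with SGC-CBP30 and -0.208 with CPI203, since the DMSO pairs differ. With no minimum fold, 24 members were called with SGC-CBP30, 26 with CPI203, 28 in the difference between responses and 29 between the DMSO pairs. At 2-fold, limma called 1, 0, 4 and 3, and with CPI203 also 0 at an unadjusted p under 0.05. With each library scaled to the same median, the median was -0.27 with SGC-CBP30 and -0.336 in the difference between responses. The CPI203 median, 0.018, was -0.003 with no filter, where the members under 1 RPKM enter, and 0.045 with quantile normalization, under which SREBF1 (-0.53) and FDFT1 (-0.57) with SGC-CBP30 fell below 1.5-fold.

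Leaving out each library in turn, the SGC-CBP30 median ranged from -0.26 (without DMSO replicate 1 of its series) to -0.173 and its calls from 5 to 7. MVK (-0.56 without DMSO replicate 2 or SGC-CBP30 replicate 2), SREBF1 (-0.58 without DMSO replicate 2) and NPC2 with CPI203 (0.57 without DMSO replicate 1, 0.56 without CPI203 replicate 1; in the difference between responses -0.58 without CPI203 replicate 1) then fell below 1.5-fold. The median between the DMSO pairs ranged from 0.379 to 0.46, with 9 to 13 calls. CPI203 calls ranged from 8 to 11 and those of the difference from 9 to 11. The study speaks of paired DMSO controls without saying how they were paired, and the labels do not say that replicate numbers pair the samples. The deviations of same-numbered samples had a correlation of -0.172 in the SGC-CBP30 series and -0.0395 in the CPI203 series over 8298 genes. With the replicate number as a block, 6, 9, 10 and 9 members were called, as without it, and the medians were -0.194, 0.018, -0.27 and 0.436.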
